A study of Homo sapiens with 12 samples.

Results

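The last 1.62 Mb of the long arm of human chromosome 19, band 19q13.43 next to the telomere, hold a dense cluster of zinc finger genes under the histone mark H3K9me3 (trimethylation of lysine 9 on histone H3). The peaks described here are those of chromosome 19 whose midpoint lies from 57000000 to the end of the chromosome (hg38), which is 657 of the 112068 peaks in the 2 deposited lists. Of these, 389 of 65170 peaks came from SMARCA3 knockout (KO) cells and 268 of 46898 from wild-type (WT) cells. The interval was chosen by its covered peak bases in the KO and WT lists, so each difference between KO and WT in it is a description and carries no test. The series asked how the loss of SMARCA3 (HLTF), a DNA translocase of the SWI/SNF family that also has a RING finger, alters H3K9me3. KO and WT cells were both of the 293T line, an established line from human embryonic kidney that carries the SV40 large T antigen. The labels name 12 libraries, 3 H3K9me3 ChIP and 3 input libraries of each genotype, and no treatment. Their protocol describes ChIP-seq, while their molecule field says total RNA and their library source field transcriptomic. The sources used here do not state how the KO was made, whether it is 1 clone, or how the libraries were combined into 1 list per genotype. With 1 list per genotype no difference has a replicate check, the depth of the libraries is unknown, and peak lists hold no marker by which the cell line or the knockout could be checked.

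Zinc finger genes of the KRAB class encode DNA-binding repressors that recruit TRIM28 (KAP1), which in turn brings in the H3K9 methyltransferase SETDB1 and the HP1 proteins. The genes themselves lie in tandem clusters, many of them on chromosome 19, and their zinc finger exons near the 3' end are a known site of H3K9me3 in many cell types. ZNF274, itself a gene of the interval, is known to bind such exons, and TRIM28 lies in the same interval close to the telomere.

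Few of the sequences just upstream of gene starts met a peak in either list. Of the 65 protein-coding genes of the interval in the RefSeq table (GRCh38.p14), 58 had a promoter sequence there, from 250 bases before to 50 bases after a transcript start. That start was the edge of the gene body for 49 of the 58 and lay over 500 bases inside it for 8. Among these were ZNF324B (33226 bases), ZSCAN4 (17459 bases), ZNF814 (16091 bases) and ZNF749 (6760 bases). A KO peak met 4 of these 58 (6.90%, Wilson 95% interval 2.71 to 16.4%), against 0.347% of the 15842 promoters of all coding genes. A WT peak met 1 of them (1.72%, 0.305 to 9.14%), against 0.107% of all. The promoter of C19orf18 was met in both lists, over 300 bases in KO and 266 bases in WT. The promoters of ZNF418, ZNF814 and ZNF154 were met in KO by 271, 190 and 118 bases and in WT by none. The 250 upstream bases follow for 3 of the promoters met and, for contrast, for ZNF544, whose body held the most additional bases in KO while its promoter met no peak. ZNF418 and ZNF544 were picked for this after their values were seen, and the capitals mark a run of letters described next.
C19orf18, chr19:57974535-57974784, minus strand: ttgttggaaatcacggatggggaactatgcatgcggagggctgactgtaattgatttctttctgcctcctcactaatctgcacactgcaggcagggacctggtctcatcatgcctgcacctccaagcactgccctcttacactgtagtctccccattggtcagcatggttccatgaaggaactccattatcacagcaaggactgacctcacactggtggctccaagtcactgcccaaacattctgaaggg
ZNF154, chr19:57709205-57709454, minus strand: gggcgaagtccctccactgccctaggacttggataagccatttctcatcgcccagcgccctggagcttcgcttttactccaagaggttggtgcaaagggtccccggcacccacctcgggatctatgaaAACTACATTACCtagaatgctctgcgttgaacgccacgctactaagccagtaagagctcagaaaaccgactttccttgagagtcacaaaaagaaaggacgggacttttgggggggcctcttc
ZNF418, chr19:57935403-57935652, minus strand: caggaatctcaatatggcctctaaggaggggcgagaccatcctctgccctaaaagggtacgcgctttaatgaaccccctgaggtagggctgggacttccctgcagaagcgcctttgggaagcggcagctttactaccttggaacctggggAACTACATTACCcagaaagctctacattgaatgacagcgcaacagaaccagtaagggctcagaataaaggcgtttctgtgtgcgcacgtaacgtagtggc
ZNF544, chr19:58228664-58228913, plus strand: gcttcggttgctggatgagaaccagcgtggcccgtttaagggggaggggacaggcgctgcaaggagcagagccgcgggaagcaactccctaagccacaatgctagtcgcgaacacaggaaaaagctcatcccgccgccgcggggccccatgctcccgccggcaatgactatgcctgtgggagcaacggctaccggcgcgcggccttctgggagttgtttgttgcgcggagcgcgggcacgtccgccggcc
In these 250 bases the CG dinucleotide occurred 2 times for C19orf18, 11 times for ZNF154, 10 times for ZNF418 and 26 times for ZNF544. Over the whole promoter sequence the 3 promoters met in KO alone held 13 to 14 CG dinucleotides and C19orf18 held 2. The 54 promoters met in neither list had a median of 21 (range 2 to 42), close to the median of 22 over all coding genes.

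The 3 promoters met in KO alone shared 1 run of 12 letters, AACTACATTACC, the longest they have in common. It was found after the values were seen, was searched on both strands, and overlaps no other motif searched. It stood in 11 of the 58 promoters, all of zinc finger genes and all in the sense of the gene, against 13 of the 15842 promoters of all coding genes (0.0821%). Outside the interval only the promoters of MAP2K6 and ZNF599 held it. Of the 11 promoters, only those of ZNF154, ZNF418 and ZNF814, which defined the run, met a peak. The KO peak at ZNF154 (57709337 to 57710623) did not cover the run itself, while those at ZNF418 and ZNF814 did. The sites are shown for 5 genes in the order of the chromosome, with the run in capitals, to let the flanks be compared. The promoters of these 5 genes met no peak in either list.
ZNF17, chr19:57411039-57411070, plus strand: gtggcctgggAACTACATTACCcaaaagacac
ZNF772, chr19:57477633-57477664, minus strand: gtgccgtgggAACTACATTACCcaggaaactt
ZNF416, chr19:57578989-57579020, minus strand: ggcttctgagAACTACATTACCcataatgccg
ZNF530, chr19:57599779-57599810, plus strand: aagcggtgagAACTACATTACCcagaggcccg
ZNF586, chr19:57769530-57769561, plus strand: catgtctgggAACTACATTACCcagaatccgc
Counted from the start that the promoter table uses, the run began between positions -147 (ZNF749) and -88 (ZNF772), and the 11 genes spanned 524 kb. A peak met the body of 8 of the 11 genes in KO and of 10 in WT, with median covers of 50.5% in KO and 21.3% in WT. Of the 36 zinc finger genes whose promoter lacked the run, 23 had a peak in KO and 22 in WT, with median covers of 16.0% in KO and 7.82% in WT. The 11 genes include ZNF154, ZNF418 and ZNF814, which defined the run because a KO peak met their promoter. Both medians of the 11 genes are those of ZNF418. The cover of the 2 sets is therefore not an independent comparison. The match is a description of letters and not of a binding site. Tandem copies share sequence, so the 11 promoters are not independent.

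KO peaks covered 424 kb of the interval and WT peaks covered 208 kb, a ratio of 2.04. That was 26.2% of its length in KO and 12.8% in WT. The number of peaks differed less, with a ratio of 1.45 (95% interval 1.24 to 1.70, counting error only, peaks taken as independent). The KO peaks were wider, with a median width of 640 bp among KO peaks (quartiles 410 to 1133) and of 467 bp among WT peaks (333 to 801). Peaks over 1 kb made up 121 of the KO peaks (31.1%) and 45 of the WT peaks (16.8%). The fold enrichment, the authors' own value of each peak within its list, did not share that pattern, with medians of 3.55 in KO (quartiles 3.07 to 4.26) and 3.68 in WT (3.30 to 4.24). The lists differ in length. With the KO list shortened to its 46898 peaks of lowest q-value, the interval held 298 KO and 268 WT peaks, the ratio of peaks was 1.11 and that of covered bases 1.81. At its lower bound, the first KO peak inside was 57040215 to 57040494 (fold 3.73) and the last one outside 56927454 to 56927829 (fold 3.51). The first WT peak inside was 57108620 to 57108959 (fold 4.24) and the last one outside 56954503 to 56955007 (fold 3.36).

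**Figure D1:**
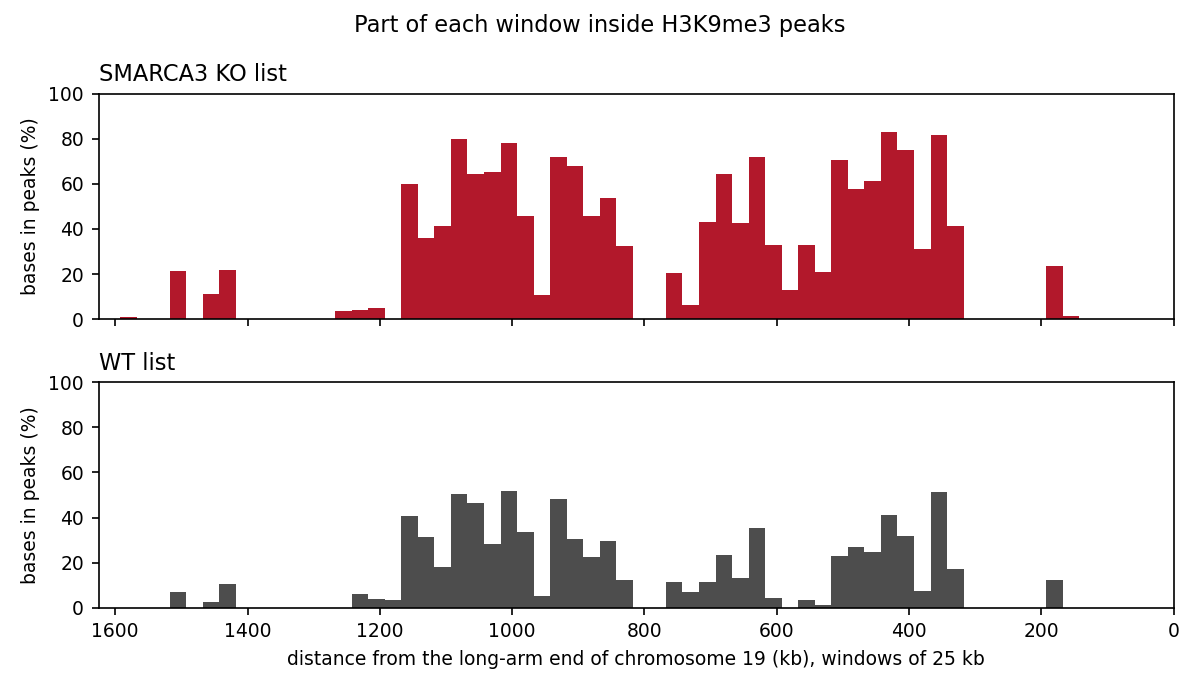
Percent of bases in H3K9me3 peaks in windows of 25 kb (y axis) against the distance from the end of chromosome 19 in kb (x axis), KO above and WT below. The 2 large blocks from VN1R1 to ZNF586 and from ZNF814 to ZNF8 stand out in both lists, and the last 167 kb before the chromosome end hold none.

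The peaks lay in blocks with empty stretches between them. With peaks joined over gaps of up to 20 kb, a gap chosen after seeing the data, 8 blocks formed, and 2 of them held 360 of the 389 KO peaks (92.5%) and 252 of the 268 WT peaks (94.0%). The first of these, 57444631 to 57790560, spans 346 kb from VN1R1 to ZNF586 and includes 17 genes, 16 of them zinc finger genes. KO peaks covered 54.4% of it and WT peaks 32.7%, so that KO had 1.66 times the WT bases. The second, 57857823 to 58296385, spans 439 kb from ZNF814 to ZNF8 and includes 13 genes, 12 of them zinc finger genes. Here KO peaks covered 48.4% and WT peaks 19.1%, and the KO bases were 2.54 times the WT bases. The 2 blocks were thus closer to each other in cover in KO than in WT, and 67.3 kb without a peak lie between them.

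In windows of 100 kb, 13 of the 17 held a peak, and all 13 held more covered bases in KO, where 78% of all such windows in the genome did. The window from 58100000, with ZSCAN18, ZNF329 and ZNF274, held 68083 bases in KO and 28961 in WT. The window from 58200000, with ZNF544 and ZNF8, held 57185 in KO and 26893 in WT. The window from 57900000, with ZNF417, ZNF418, ZNF256, C19orf18 and ZNF606, held 55475 in KO and 20941 in WT. These 3 windows had the largest differences, and all lie in the second large block. Among windows with WT peaks, the highest ratio was in the one from 58000000, with ZSCAN1 and ZNF135, at 24899 bases and 37 peaks in KO against 2207 bases and 7 peaks in WT, or 11.3. The smallest differences were in the windows from 57000000 (280 bases in KO, 0 in WT), from 57300000 (1954 in KO, 1489 in WT) and from 57800000 (6669 in KO, 4678 in WT).

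Nearly all WT peaks of the interval were met by KO peaks. Of the 268 WT peaks, 14 met no KO peak by at least 1 bp, against 20.1% of WT peaks over chromosomes 1 to 22, X and Y, so 94.8% were met (91.4 to 96.9%). This share was similar on the rest of chromosome 19, at 92.5%. In the zinc finger clusters of 19p12, 19q13.12 and 19q13.41 it was 93.1%, 94.1% and 95.3%, and in the adjoining 1 Mb towards the centromere 97.5%. Of the 389 KO peaks, 207 met no WT peak (53.2%), near the 49.4% over chromosomes 1 to 22, X and Y. So 46.8% of KO peaks were met, against 32.0% on the rest of chromosome 19. In 19p12, 19q13.12 and 19q13.41 this share of KO peaks was 12.5%, 42.2% and 32.2%, and in the adjoining 1 Mb 30.7%. By bases, 92.2% of the WT cover lay in KO peaks and 45.2% of the KO cover lay in WT peaks. Over chromosomes 1 to 22, X and Y the same shares were 77.3% of WT and 48.7% of KO bases.

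The additional KO bases lay beside WT peaks and in peaks of their own in nearly equal parts. KO peaks that met a WT peak added 117118 bases outside the WT peaks, 50.4% of all additional bases, and KO peaks that met none added 115330 bases. Over chromosomes 1 to 22, X and Y the first share was 41.7%. The met KO peaks were wide, with a median of 1082 bp, and the unmet ones narrow, with a median of 475 bp. The unmet KO peaks had a median fold of 3.30, against 4.01 for the met ones. Of the 207 unmet KO peaks, 87 lay within 1 kb of a WT peak, 177 within 5 kb and 18 beyond 10 kb. The same counts over chromosomes 1 to 22, X and Y were not computed. The 2 large blocks held 252 of the 268 WT peaks, so these distances partly reflect how dense WT peaks are there. WT bases without KO cover came to 16092.

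A part of the wider peaks in KO joined several WT peaks. In KO, 49 peaks (12.6%) met at least 2 WT peaks each and took in 131 WT peaks, and in WT, 10 peaks (3.73%) met at least 2 KO peaks. Over chromosomes 1 to 22, X and Y these shares were 9.31% in KO and 6.50% in WT. At ZNF416 a single KO peak of 9315 bp, 57568805 to 57578119, met 10 WT peaks. When peaks of a list less than 1 kb apart were merged, the order of the counts turned round, with 120 stretches in KO and 135 in WT. The stretches averaged 4332 bp for KO and 1892 bp for WT.

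**Figure D2:**
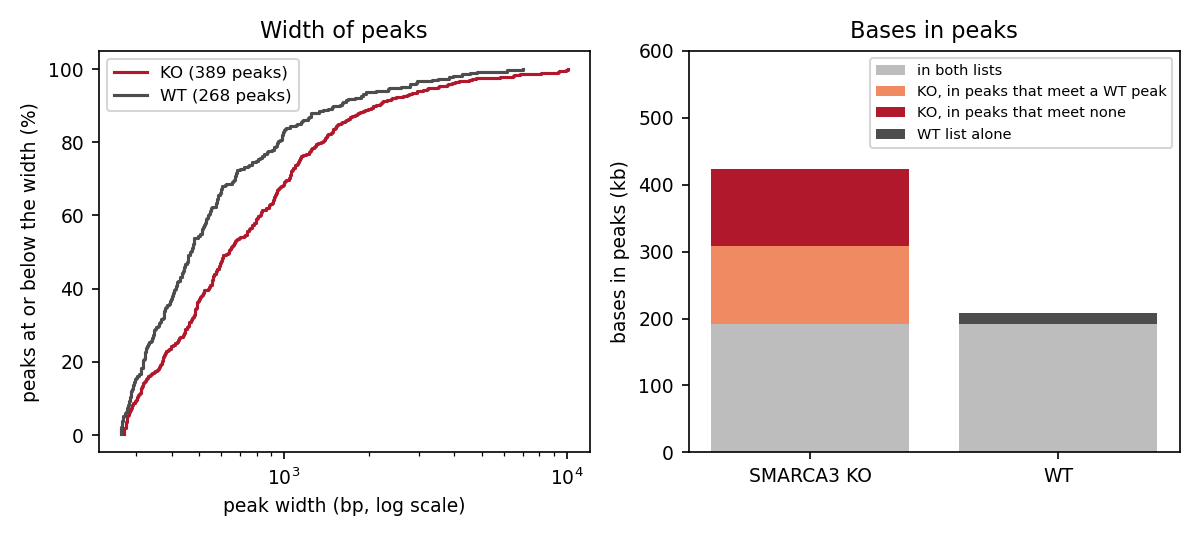
Left, cumulative percent of peaks (y axis) by width in bp (x axis, log scale) for KO and WT. Right, peak bases in kb split into bases in both lists, KO bases beside WT peaks, KO bases in peaks that meet no WT peak and WT bases alone, where the KO additions are 117118 and 115330 bases.

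The highest peaks lay on zinc finger genes in both lists. The highest fold in KO was 8.62, over 9987 bp in the body of ZNF274 (58193496 to 58203482), and this peak met 6 WT peaks. In WT the highest fold at ZNF274 was 5.24. The next in KO was a peak of 10074 bp at ZNF776 (57747559 to 57757632, fold 7.65), the widest of the interval. It met 4 WT peaks, among them the highest of the WT list in the interval, of 4551 bp and fold 6.90 (57752074 to 57756624). Both lists thus had a top peak at ZNF776. The other KO peaks among the 5 highest lay on ZNF606 (fold 6.83), ZSCAN18 (6.75) and ZNF586 (6.61), and the WT peaks lay on ZNF550 (6.42), again on ZNF776 (6.02) and between ZNF550 and ZNF416 (5.97 and 5.90). The widest WT peak, of 7013 bp, lay on ZNF551. At ZNF134 a KO peak of 9426 bp and a WT peak of 6157 bp began 1 bp apart.

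Over gene bodies, 36 of the 65 coding genes had a peak in KO and 35 in WT, against 23.7% and 20.9% of the 20033 coding genes. The same 33 genes had one in both lists. More bases of the body were covered in KO for 35 genes (19.4% of all coding genes) and fewer for 3 (5.46% of all). Among the 51 zinc finger genes, 33 had a peak in KO (64.7%) and 34 in WT (66.7%), and 32 had more covered bases in KO. Of the 218 zinc finger genes elsewhere on chromosome 19, more had a peak, 186 in KO (85.3%) and 166 in WT (76.1%). There, 183 had more covered bases in KO. Over the 51 genes of the interval, peaks covered 32.7% of the summed length in KO and 18.1% in WT. They covered more than 50% of the body in 20 of these genes in KO (39.2%) and in 6 in WT (11.8%). That share was 0.699% in KO and 0.280% in WT over all coding genes, and 28.0% in KO and 7.80% in WT over the 218 zinc finger genes elsewhere on chromosome 19. Of the 14 other genes, 3 had a peak in KO (DUXA, VN1R1 and C19orf18) and 1 in WT (C19orf18). VN1R1 had 1 KO peak, which covered 271 bases at fold 2.68. With cuts on fold or q-value, or with lists of equal length, its KO minus WT difference was 0 bases. Over the summed length of these 14 genes the cover was 7.27% in KO and 2.22% in WT. In both lists the genes with a peak were mainly zinc finger genes, and the KO list covered more of the same genes rather than more genes.

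The 10 genes with the largest difference in covered bases were ZNF544, ZNF274, ZSCAN18, ZNF606, ZNF329, ZNF154, ZNF530, ZNF8, ZNF135 and C19orf18. ZNF544 had 28028 covered bases in KO and 14597 in WT, or 57.7% and 30.1% of its body. It held 18 KO and 16 WT peaks. ZNF274, which encodes the zinc finger protein that recruits SETDB1 to other zinc finger genes, had 25863 covered bases in KO and 13251 in WT, in 12 KO and 16 WT peaks. That was 84.8% of the body in KO and 43.4% in WT. ZSCAN18, a gene with a SCAN domain, the dimerisation domain of some zinc finger proteins, had 16203 in KO and 4948 in WT. Among the 7 SCAN genes of the interval, 4 had a peak in KO and 3 in WT, and ZSCAN1 had 5 peaks in KO and 0 in WT. The KO peaks of ZSCAN1 covered 1561 bases, with a highest fold of 2.96. With the cut on fold or on q-value its KO minus WT difference was 0 bases, and with lists of equal length 311. ZSCAN4, known for its bursts in early embryos and embryonic stem cells, had 8 KO and 5 WT peaks, over 16.1% of its body in KO and 9.21% in WT. Some of these peaks lay in the 17459 bases of its body before the start in the promoter table.

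ZNF154 and ZNF671, neighbours whose promoters are known as methylated in several cancers, were covered over 82.6% and 50.3% of their bodies in KO, against 37.1% and 25.9% in WT. ZNF154 had fewer peaks in KO, 5 against 8 in WT, that were longer. The largest ratio among the 10 genes was at ZNF135, with 5950 covered bases in KO and 822 in WT. ZNF606 had 18132 in KO and 8297 in WT, and ZNF329 had 16171 in KO and 7265 in WT. ZNF530 had 8846 in KO and 3440 in WT, and ZNF8 had 9298 in KO and 3942 in WT, though with only the peaks at or above the median fold the KO minus WT difference of ZNF8 was -222. C19orf18 had 6676 in KO and 2363 in WT. All 10 genes but ZNF154 and ZNF530 lie in the second large block.

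**Figure D3:**
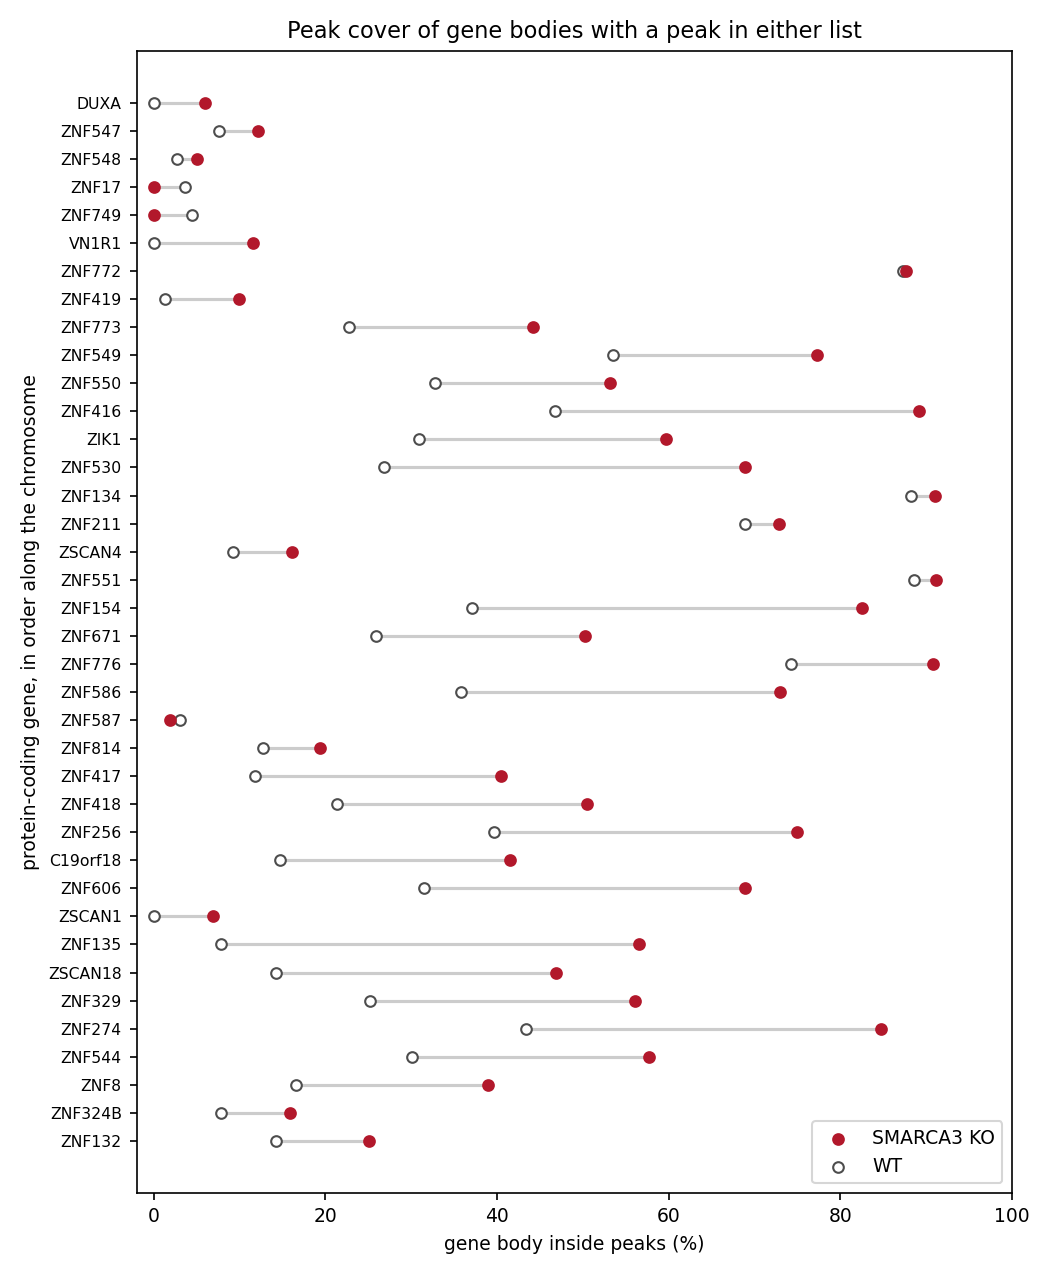
Percent of the gene body in H3K9me3 peaks (x axis) for the 38 coding genes with a peak in either list, in the order of the chromosome, with filled red points for KO and open grey points for WT. The pairs lie apart at ZNF274 (84.8% in KO, 43.4% in WT) and nearly coincide at ZNF772 (87.6% in KO, 87.3% in WT).

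In WT 5 genes had more than 2/3 of the body in peaks: ZNF772, ZNF551, ZNF134, ZNF211 and ZNF776. Their cover in KO was 1.00 to 1.22 times that in WT, and since cover ends at the full length of the gene, this split itself limits the ratio. At ZNF551 it was 91.2% in KO and 88.6% in WT. The order of KO and WT at 2 of these genes turned with the peaks counted: KO minus WT was -517 bases at ZNF772 with the lists at equal length or cut on the q-value, and -3347 bases at ZNF211 with only the peaks at or above the median fold. The 6 genes with 1/3 to 2/3 in WT had 1.44 to 2.23 times as much cover in KO (median 1.93). The 24 genes with a lower cover above 0 in WT had a median ratio of 1.94 (range 0 to 7.29).

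Fewer covered bases in KO were found at 3 genes. ZNF749 had 1 peak of 824 bases in WT and 0 in KO, ZNF17 had 394 bases in WT and 0 in KO, and ZNF587 had 287 bases in KO against 469 in WT. All 3 are nearly free of the mark in both lists, with less than 5% of the body covered. ZNF587 belongs with ZNF587B, ZNF814, ZNF417 and ZNF552 to a group of near-identical copies. The sources used here do not say how reads that fit several copies were placed, so the values of these genes are uncertain. ZNF132 lies within ZNF324B, so the KO peak of ZNF132 counts for both.

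Within the zinc finger genes the cover was lower over the first 2 kb than over the last 2 kb in both lists. Over the 49 zinc finger genes with a known strand, with the edges of the gene body as start and end, the last 2 kb of the body were covered on average by 42.7% in KO and 27.9% in WT. The first 2 kb were covered by 25.7% in KO and 14.6% in WT. More was covered at the 3' end in 24 of these genes in KO and 25 in WT, and at the 5' end in 7 genes in each list. The 500 bp after the start were nearly empty, with 4.42% in KO and 2.66% in WT, although the cover from 1000 to 1500 bp after the start was 40.8% in KO and 21.7% in WT. From 1500 to 2000 bp it was 36.8% in KO and 24.7% in WT. The bins of 500 bp in the last 2 kb held 41.8 to 43.9% in KO and 24.9 to 31.8% in WT. The lower cover of the first 2 kb thus lay mostly in its first 1000 bp. Low cover also reached upstream in both lists: the 500 bp before the start held 10.0% in KO and 2.62% in WT. The bin from 1000 to 500 bp before the start held 38.7% in KO and 20.6% in WT. In the 516 zinc finger genes elsewhere, the last 2 kb were covered by 32.2% in KO and 21.6% in WT and the first 2 kb by 11.2% in KO and 4.79% in WT.

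**Figure D4:**
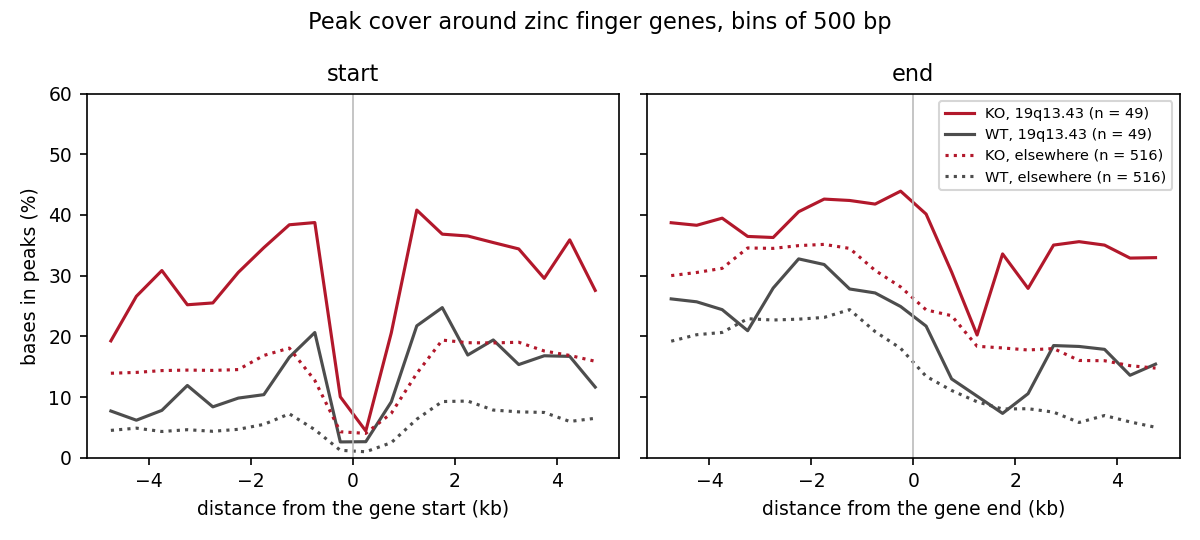
Mean percent of bases in peaks (y axis) in bins of 500 bp against the distance in kb from the gene start (left) and gene end (right). Lines show the 49 zinc finger genes of the interval (solid) and 516 elsewhere (dotted), KO in red and WT in grey. The cover dips at the start, to 4.42% in KO and 2.66% in WT in the first bin after it, and is high at the end, at 43.9% in KO and 24.9% in WT in the last bin before it.

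The lists differed by a larger ratio between genes than over gene bodies. Bodies of coding genes were covered by 29.9% in KO and 16.4% in WT (KO over WT 1.83). The bases between them were covered by 21.0% in KO and 7.89% in WT (2.66). In the second large block the cover between genes was 47.2% in KO, close to the 48.9% of the bodies in KO, whereas in WT it was 12.6% between genes and 21.8% in bodies. The promoter classes of the authors' annotation, which reach 3 kb from a transcript start, took 181 KO peaks (46.5%) and 119 WT peaks (44.4%), where they took 9.71% of all KO and 8.23% of all WT peaks.

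Other zinc finger genes of the interval had no peak over the gene body in either list. The longest run without one was ZNF264, AURKC, ZNF805, ZNF460, ZNF543 and ZNF304, 6 genes over 168 kb. AURKC, a kinase of meiotic cell division, lay 40020 bp from the nearest KO peak and 40094 bp from the nearest WT peak. A run of 8 genes over 113 kb, from ERVK3-1 to ZNF584, held 4 zinc finger genes. The run of 8 genes nearest the telomere, from ZNF324 to MZF1 over 106 kb, includes TRIM28, at 93668 bp from the nearest KO peak and 94046 bp from the nearest WT peak. In all, the bodies of 27 genes, 16 of them zinc finger genes, were free of peaks in both lists. Peaks could still lie close by: at ZNF264 the nearest KO peak was 497 bp and the nearest WT peak 571 bp from the body. The last peak before the telomere ended at 58450396 in KO and 58450018 in WT. Of 15 genes for H3K9me3 writers, readers and recruiters across the genome, 7 had a peak over the body in KO (46.7%) and 4 in WT (26.7%), against 23.7% and 20.9% of all coding genes, and in the interval these were ZNF274 with a peak in both lists and TRIM28 with none.

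Values of other stretches of chromosome 19 are given beside those of the interval as a description, since with 1 list per genotype no difference between them has a test. KO had 1.45 times as many peaks as WT in the interval, against 1.66 in the zinc finger cluster of 19q13.12, 2.04 in that of 19q13.41 and 5.78 in that of 19p12. On the rest of chromosome 19 as a whole the ratio was 2.17, and without 19p12 it was 1.70. By covered bases the ratios were 2.04 in the interval, 2.23 in 19q13.12, 2.50 in 19q13.41, 4.94 in 19p12 and 2.49 on the rest of the chromosome, or 2.15 without 19p12. In KO 26.2% of the interval was covered, against 34.0% of 19q13.12 and 18.6% of 19q13.41. In WT the values were 12.8% in the interval, 15.2% in 19q13.12 and 7.43% in 19q13.41. Over chromosomes 1 to 22, X and Y the ratio of covered bases was 1.59.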

How the data were processed

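H3K9me3 ChIP and input libraries of KO and WT 293T cells were sequenced by the authors. Per the submitters' processing notes, HISAT2 and hg38 were used. The sources used here do not state the peak caller, its settings or the pooling of replicates. The authors deposited 1 peak list per genotype with a fold enrichment (read here as a linear ratio over background) and a q-value (an adjusted p-value within its list) for each peak. The files hold no counts, so depth is unknown and the planned edgeR test of libraries was not run.

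Positions were read as counted from 1. Peaks were shared at an overlap of at least 1 bp, and covered bases are the union of a list's peaks. Gene bodies and promoters came from RefSeq tables (GRCh38.p14), matched by symbol. Strand was known for 60 of the 65 genes. Wilson 95% intervals cover counting error only. Named are the 10 genes with the largest KO minus WT difference in covered bases, those with fewer bases in KO, the genes of the 5 highest and 5 widest peaks per list, and 8 genes set by name, 1 of which is not reported here. The members, gene lists and rules were chosen with earlier results of these data known. The blocks, the shared run of letters and the split of genes by WT cover were chosen after seeing the values. Alternatives tried were cuts on fold and q-value, equal list length, merging, other overlaps, bounds and gene assignment. The interval arithmetic was tested on simulated data. Python 3.11.15, pandas 2.3.3, numpy 2.4.6, scipy 1.17.1 and matplotlib 3.10.9 were used.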

Additional observations from a re-analysis of the deposited data

How the results depend on the processing

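The ratio of covered bases stayed above 1 under every alternative run. Of 79 recomputed summary values, 59 stayed within a limit, which was their error or a change of 1.5 times. For the ratio of covered bases the limit was the rescaled interval of the ratio of peaks, not an error of bases. Counting peaks that meet the interval, or those wholly inside it, returned the main ratios because no peak crosses its bounds. For median width and median fold the limit was the quartile range of single peaks, which is not an error of the median. The 59 therefore include larger shifts, such as the KO median width of 1003 bp with the cut on fold, against 640 bp. With peaks of q-value at or below the median of both lists (1.71e-07), the ratio of peaks was 2.42 and of bases 2.65, 29.3% of KO and 90.6% of WT peaks were met, the WT medians were 874 bp in width and 4.34 in fold, 0 genes outside the zinc finger list had a WT peak, and in WT the last 2 kb exceeded the first by 7.80 percentage points. With fold at or above the median of both lists (3.69), 72.2% of WT peaks were met, 5 genes had fewer bases in KO, and in KO the last 2 kb exceeded the first by 10.2 percentage points. With lists of equal length, the ratio of peaks was 1.11, 53.7% of KO and 85.4% of WT peaks were met, and 5 genes had fewer bases in KO. Merging peaks within 1 kb gave a ratio of 0.889. An overlap of 50% of both peaks left 21.9% of KO and 31.7% of WT peaks met, and a gap of up to 1 kb raised this to 69.2% of KO and 97.8% of WT. Single genes reversed in KO minus WT bases with the cut on fold (ZNF211 at -3347, ZNF416 at -928, ZNF8 at -222) and with the cut on q-value or equal length (ZNF772 at -517). The cause was not tested. With the lower bound moved by 250 kb the ratio of bases was 2.12 (down) and 2.02 (up). A block gap of 10 kb gave 14 blocks.

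No paired analysis was possible because the lists hold no value per library. Leaving out each replicate was not run for the same reason. Depth is unknown and the spread between cultures was not measured.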

Other observations

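The authors' gene column gave 63 gene names to peaks of the interval, 58 in KO and 55 in WT, of which 35 are coding genes of the interval in RefSeq. Of these names, 8 stood in KO alone and 5 in WT alone. The authors' class for subtelomeric sequence took 5 KO peaks and 1 WT peak. The adjoining 1 Mb towards the centromere, with the imprinted genes PEG3 and ZIM2, held 215 KO peaks against 118 in WT (KO over WT 1.82, 95% interval 1.46 to 2.28), and its ratio of covered bases was 2.75.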
